A study of Mus musculus with 4 samples.

Results

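The 7 genes described here code for the main proteins of perineuronal nets: the chondroitin sulphate proteoglycans aggrecan (Acan), brevican (Bcan), neurocan (Ncan) and versican (Vcan), the link proteins Hapln1 and Hapln4, and the glycoprotein tenascin-R (Tnr). They were taken by name from the genes listed in each of 4 single-nucleus RNA sequencing libraries of mouse deep cerebellar nuclei and in a separate table of 480 nuclei that the depositors selected under the name vglut2. All 7 were found among 15632 genes, and each had counts in all 4 libraries and in the vglut2 table. The libraries held 21494 nuclei. The study concerned glutamatergic neurons of these nuclei and food intake. Its nuclei were not sorted, so glia were captured with the neurons.

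Of the 4 mouse libraries, 2 came from Ucn3-Cre mice, carrying the transgene Tg[Ucn3-cre]KF31Gsat, and 2 from vGluT2-Cre mice, carrying Tg(Slc17a6-icre)1Oki. In these lines the promoters of urocortin 3 and of the vesicular glutamate transporter drive Cre. Every mouse was on the C57BL/6J background and also carried Ai32, the Cre-dependent channelrhodopsin-2 (H134R) and EYFP reporter at ROSA26, so no library lacked the transgenes. Ucn3-Cre replicate 1 was a female of 3 months and replicate 2 a male of 3 months. vGluT2-Cre replicate 1 was a male of 2 months and replicate 2 a female of 2.5 months. Nuclei of Ucn3-Cre replicate 1 were cleaned on an iodixanol gradient and those of the other 3 libraries on a sucrose cushion. Line therefore cannot be told apart from age, and in 1 library not from the purification.

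Perineuronal nets are sheets of extracellular matrix around the cell body and proximal dendrites of certain neurons. Hyaluronan chains form their backbone, the lecticans (aggrecan, brevican, neurocan and versican) bind hyaluronan at one end, link proteins lock that bond, and tenascin-R crosslinks the lecticans at their other end. The large neurons of the cerebellar nuclei are among the best known net-bearing neurons of the brain. Both the enwrapped neuron and the glia around it make the parts, and RNA in nuclei shows which cells transcribe a part, not where the protein ends up.

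Promoter sequences are shown for 4 members that stand for 3 classes of nuclei described below: Tnr and Vcan for oligodendrocyte precursors, Bcan for astrocytes and Acan for glutamatergic neurons. Each is the 250 bases upstream of the start listed for that promoter, 5′ to 3′ on the gene's strand, from RefSeq on GRCm38.p6. The listed start can differ from the GENCODE gene start given further below. The Acan and Bcan windows stop short of that gene start, and the Hapln1 window lies inside the gene. For Acan, Bcan and Vcan, the bases just after the window were found in no GENCODE transcript of the gene. Capitals mark 3 motifs searched on both strands: the E-box CAGCTG, the SOX core ACAANG and the GC box GGGCGG.
Tnr, chr1:159523519-159523768, plus strand: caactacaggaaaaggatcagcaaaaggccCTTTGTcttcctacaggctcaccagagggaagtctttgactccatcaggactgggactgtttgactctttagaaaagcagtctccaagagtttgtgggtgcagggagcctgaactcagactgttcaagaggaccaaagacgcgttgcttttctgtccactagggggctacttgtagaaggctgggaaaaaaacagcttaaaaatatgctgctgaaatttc
Vcan, chr13:89742513-89742762, minus strand: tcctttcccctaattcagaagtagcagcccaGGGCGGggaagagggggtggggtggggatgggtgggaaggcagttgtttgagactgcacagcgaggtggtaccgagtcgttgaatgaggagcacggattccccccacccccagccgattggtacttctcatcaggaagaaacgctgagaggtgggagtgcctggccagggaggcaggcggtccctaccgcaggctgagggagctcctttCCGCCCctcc
Bcan, chr3:88000357-88000606, minus strand: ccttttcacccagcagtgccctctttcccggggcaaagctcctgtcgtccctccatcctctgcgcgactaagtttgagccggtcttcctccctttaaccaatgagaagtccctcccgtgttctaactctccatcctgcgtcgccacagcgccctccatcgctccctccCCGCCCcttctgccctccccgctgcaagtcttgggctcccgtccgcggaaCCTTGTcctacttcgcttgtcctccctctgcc
Acan, chr7:79052976-79053225, plus strand: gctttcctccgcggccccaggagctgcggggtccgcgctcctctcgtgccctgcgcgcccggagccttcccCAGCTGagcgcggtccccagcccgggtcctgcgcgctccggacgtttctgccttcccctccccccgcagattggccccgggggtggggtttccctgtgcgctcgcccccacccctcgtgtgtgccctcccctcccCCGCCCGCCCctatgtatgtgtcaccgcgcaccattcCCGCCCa
The Tnr window held 1 SOX core and no GC box, and its GC content of 46.8% was below the median of 52.4% over 32817 promoters. The Vcan window held 2 GC boxes, the Bcan window 1 SOX core and 1 GC box, and the Acan window 1 E-box and 3 GC boxes, some of them overlapping, at a GC content of 74.4%. Over all promoters of the same length, 13.0% held the E-box, 36.3% the SOX core and 32.7% the GC box. The Ncan window held 1 E-box and 1 GC box, and the Hapln1 window 1 SOX core. Of the 7 members, 6 were matched to a promoter by symbol, and Hapln4 was not. A match is a run of letters, not a measured binding site.

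Libraries held 9096360 and 16219100 counts for Ucn3-Cre mice, and 16412300 and 19125500 for vGluT2-Cre mice, with medians of 1730 to 3206 counts per nucleus. No annotation of nuclei was used other than the vglut2 selection, so the nuclei were clustered without the net genes, and clusters were named for the class whose markers they resembled. This gave 547 glutamatergic nuclear neurons, 664 inhibitory nuclear or Golgi neurons, 244 molecular layer interneurons, 5027 astrocytes, 693 oligodendrocyte precursors and 11177 oligodendrocytes, each name meaning "like" that class. Slc17a6, the vesicular glutamate transporter, stood at 208 CPM (counts per 1000000 counts of the class) in the glutamatergic class and at 23.5 CPM in astrocytes, which are not known to make it. Cluster 19, with 432 nuclei, stayed unnamed: its leading genes were Gm14342, Klhl1, Chrm2 and Zmat4, and it carried the inhibitory markers Gad2 at 479 CPM, Slc6a5, the glycine transporter, at 209 CPM and Pax2 at 123 CPM. The class named inhibitory nuclear or Golgi neurons had Gad2 at 449 CPM. It had Slc6a5 at only 1.33 CPM, with a count in 0.753% of its nuclei, and Pax2 at 0.268 CPM. Lgi2, another marker on its list, stood at 28.4 CPM, below the 109 CPM of glutamatergic neurons and the 75.3 CPM of cluster 19. The name of the class therefore does not rest on Slc6a5, Pax2 or Lgi2, and it does not tell nuclear from Golgi neurons. Of the barcodes, 41 occurred in more than 1 library. Levels below are CPM of the counts summed over the nuclei of a class in a library, given for Ucn3-Cre replicates 1 and 2 and then for vGluT2-Cre replicates 1 and 2.

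In every library, 3 classes held the largest shares of the lectican and tenascin-R transcripts, and the link protein transcripts were spread over more. Oligodendrocyte precursors, the dividing progenitors of myelinating cells, held 72.5 to 79.1% of the Vcan counts and 60.2 to 71.7% of the Tnr counts of a library while making up 3.23 to 3.66% of its nuclei. Astrocytes held 62.6 to 78.2% of the Bcan counts and 44.0 to 51.9% of the Ncan counts, with 22.2 to 28.1% of the nuclei. Glutamatergic neurons held 37.4 to 52.1% of the Acan counts with 1.97 to 3.56% of the nuclei. The link protein counts were split: for Hapln1, 26.5 to 39.3% lay in cluster 19, 19.2 to 33.4% in astrocytes and 21.4 to 24.1% in glutamatergic neurons, and for Hapln4, 17.0 to 41.6% lay in glutamatergic neurons and 14.0 to 38.6% in oligodendrocytes, the most numerous nuclei.

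**Figure D1:**
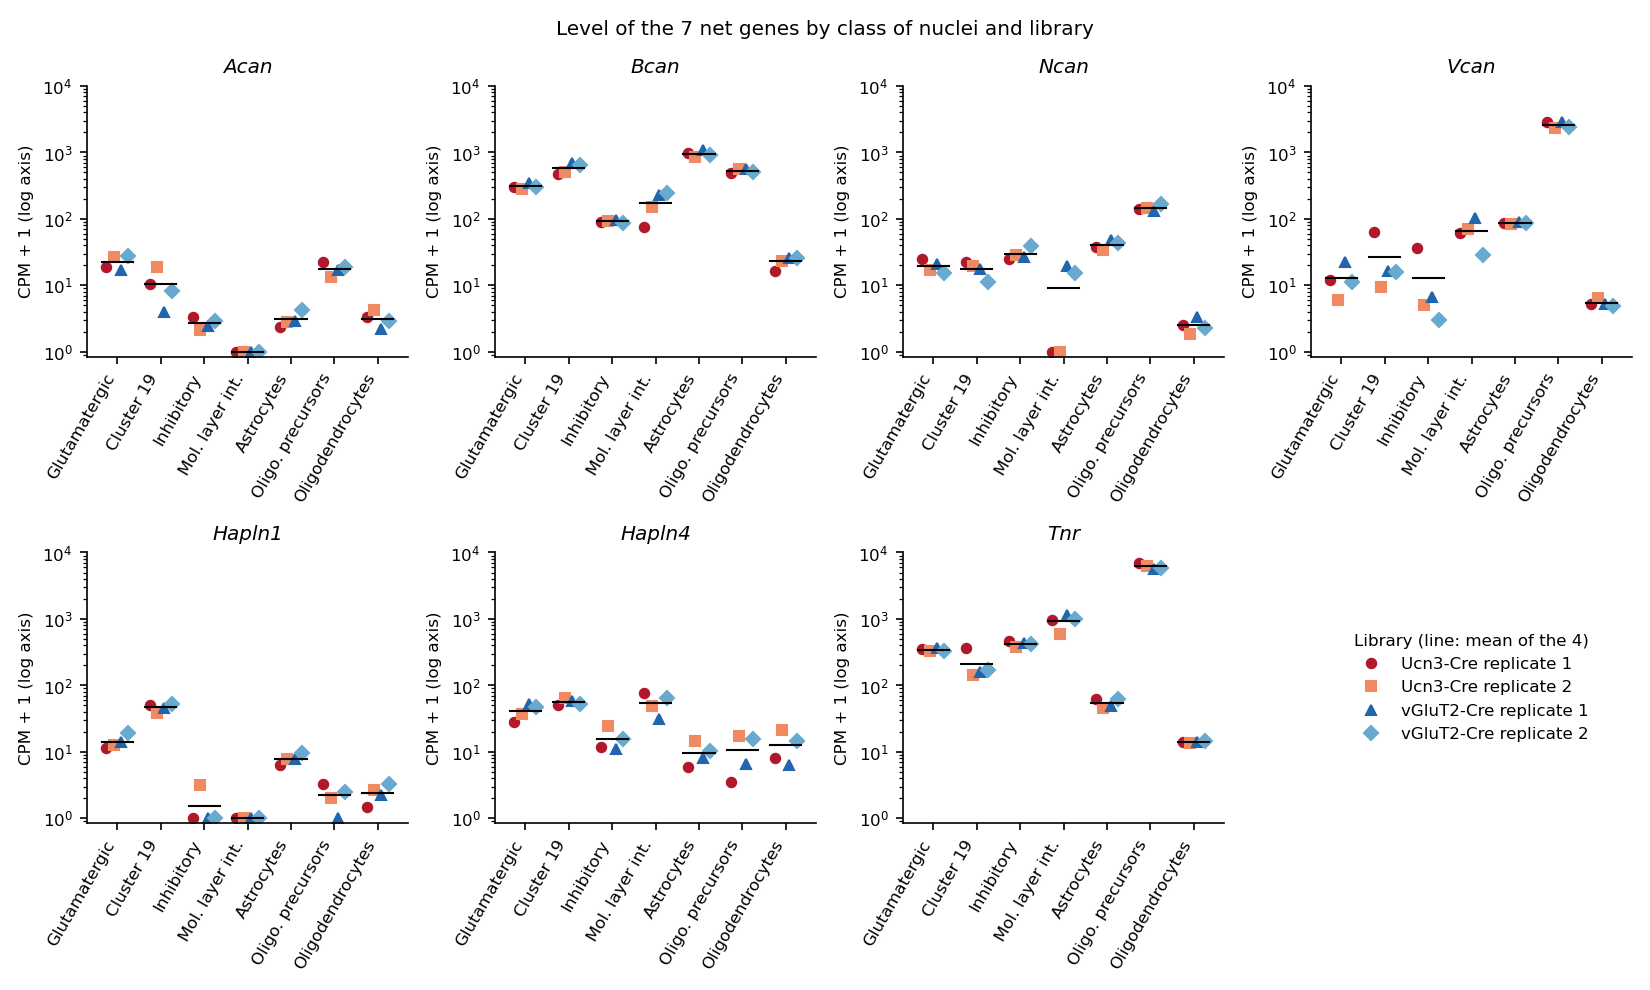
Level of each net gene (CPM + 1, log axis) by class of nuclei, with 1 point per library and a line at the mean of the 4 libraries. Vcan and Tnr stand far above the other classes in oligodendrocyte precursors, Bcan is highest in astrocytes, and Hapln1 is highest in cluster 19, with no count in molecular layer interneurons.

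**Figure D2:**
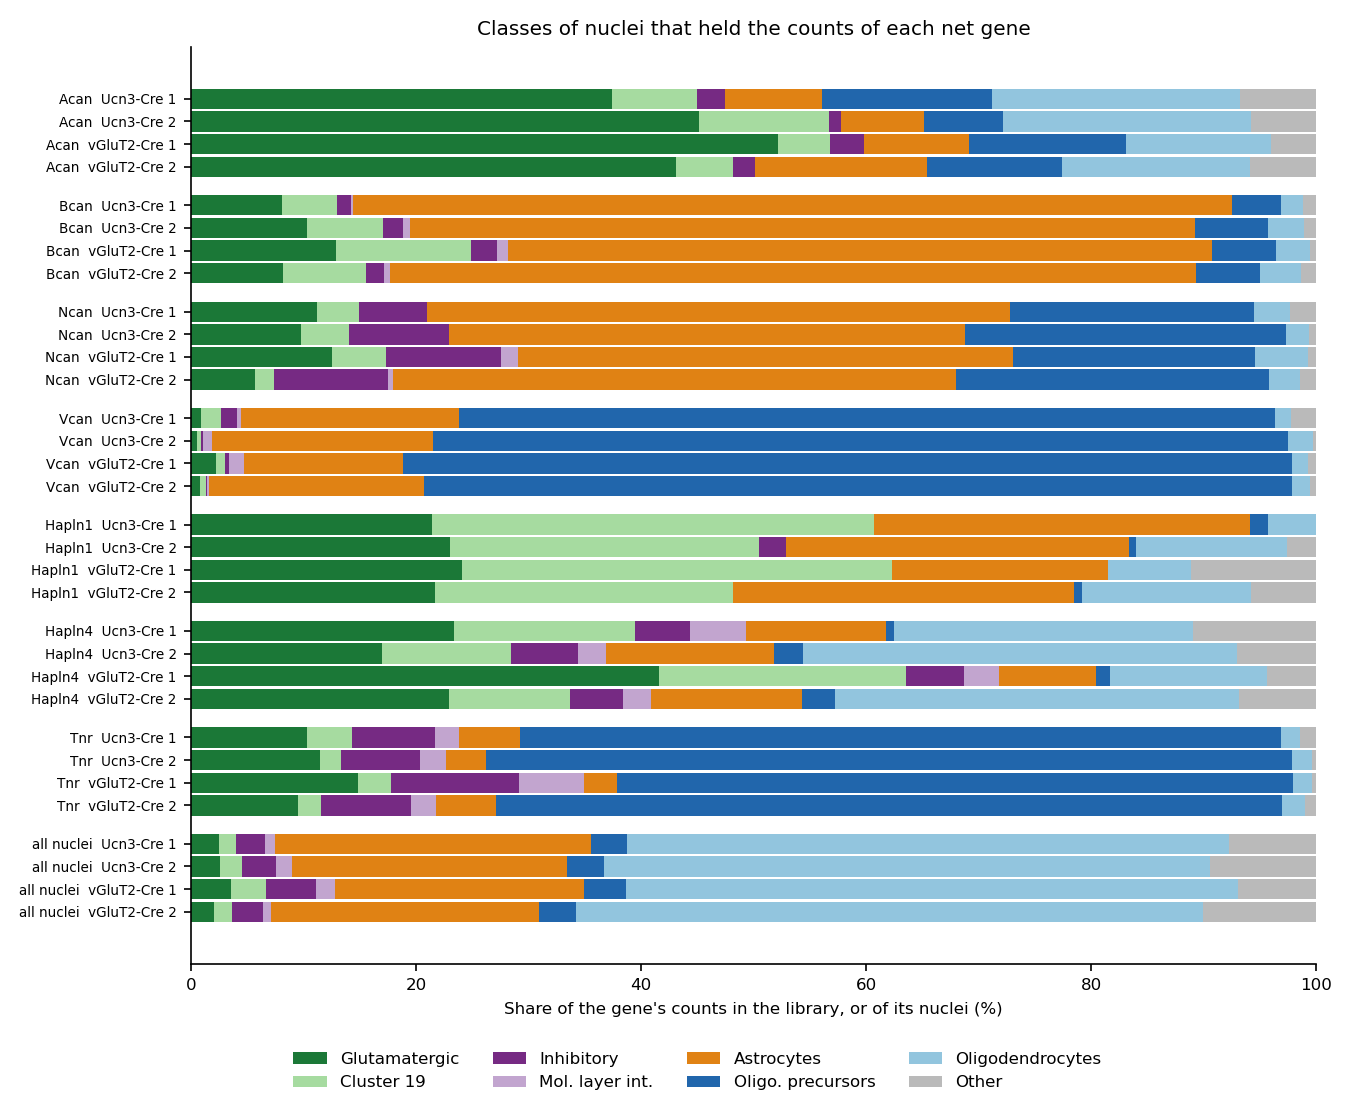
Share of each net gene's counts (%) that lay in each class of nuclei, 1 bar per library, with the share of all nuclei in the bottom 4 bars. Oligodendrocyte precursors are a narrow band of the nuclei and the widest band of the Vcan and Tnr counts in every library.

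Versican is a large lectican of loose matrix and of the nodes of Ranvier. Vcan stood at 2902, 2295, 2853 and 2400 CPM in oligodendrocyte precursors, against 85.9, 83.8, 90.1 and 84.9 CPM in astrocytes and 4.26, 5.45, 4.22 and 3.88 CPM in oligodendrocytes. The 3 classes did not overlap in any library. The log2 fold change was 4.82 ± 0.13 over astrocytes (SE, adjusted p = 1.5e-27) and 9.02 ± 0.18 over oligodendrocytes (adjusted p = 1.74e-32), by edgeR's quasi-likelihood test across all genes with the library as a block. Microglia, which are not known to make versican, had at most 6.78 CPM, overlapping the oligodendrocyte level.

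Tenascin-R is made by cells of the oligodendrocyte line and by some neurons. Tnr stood at 6982, 6312, 5582 and 5787 CPM in oligodendrocyte precursors, against 62.4, 44.1, 48.1 and 62.6 CPM in astrocytes and 13.0, 12.6, 13.0 and 13.4 CPM in oligodendrocytes. The difference was 6.74 ± 0.17 on the log2 scale over astrocytes (adjusted p = 1.16e-28) and 8.74 ± 0.19 over oligodendrocytes (adjusted p = 2.27e-31). Mature oligodendrocytes stood near the 0 to 14.9 CPM of microglia. A Tnr count was present in 99.5 to 100% of precursor nuclei and a Vcan count in 97.0 to 100%, against at most 3.32 and 2.22% of microglia, at median depths of 1960 to 4065 counts in precursors and 1169 to 2513 in microglia. After each nucleus was thinned to 1000 counts, the shares in precursors were still 98.5 to 99.2% for Tnr and 86.1 to 90.6% for Vcan. In every library at least 97.0% of precursor nuclei held both.

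Neurocan is a lectican known mainly from the developing brain. Ncan stood at 141, 145, 130 and 167 CPM in oligodendrocyte precursors, against 37.3, 33.1, 46.7 and 42.8 CPM in astrocytes and 0.881 to 2.37 CPM in oligodendrocytes. It was higher in precursors than in astrocytes (log2 fold change 1.79 ± 0.15, adjusted p = 4.97e-13) and than in oligodendrocytes (6.37 ± 0.21, adjusted p = 3.4e-25). Acan was lower than the other lecticans in precursors, at 21.9, 12.3, 15.9 and 17.8 CPM. It was above astrocytes at 1.38 to 3.22 CPM (2.80 ± 0.39, adjusted p = 2e-07 by edgeR) and oligodendrocytes at 1.23 to 3.21 CPM (2.79 ± 0.37, adjusted p = 5.86e-08 by edgeR). The Acan values rested on 5, 7, 7 and 10 precursor nuclei with a count. Hapln1 rested on 2.15 counts in precursors, and its pooled ratio over astrocytes was 0.150, with an exact counting interval of 0.0167 to 0.519 at 95%. That call was lost without vGluT2-Cre replicate 2 (adjusted p = 0.0531). In all, 6 of 7 members passed the threshold of adjusted p under 0.05 between precursors and astrocytes, where 45.6% of all genes tested did, and 5 of 7 between precursors and oligodendrocytes, where 51.7% did. The classes were set from other genes of the same nuclei, which can make p-values between classes too small. They also measure only the spread between these 4 libraries.

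Brevican is the most abundant lectican of the adult brain. Bcan stood at 966, 842, 1101 and 902 CPM in astrocytes, against 15.6, 22.5, 24.8 and 24.8 CPM in oligodendrocytes, a log2 fold change of 5.35 ± 0.11 (adjusted p = 1.19e-32). Oligodendrocytes lay below the 26.6 to 61.4 CPM of microglia. Oligodendrocyte precursors had 488, 555, 573 and 499 CPM, 0.93 ± 0.09 lower than astrocytes on the log2 scale (adjusted p = 7.3e-11), with no overlap. A Bcan count was present in 81.3 to 93.3% of astrocyte nuclei, against 6.54 to 11.2% of microglia. Astrocytes were also above oligodendrocytes for Ncan (4.59 ± 0.20), Vcan (4.20 ± 0.19), Hapln1 (2.07 ± 0.30) and Tnr (2.00 ± 0.17). So 5 of 7 members were called, against 67.8% of all genes. Astrocyte Tnr, at 44.1 to 62.6 CPM, lay within the 19.6 to 63.5 CPM of endothelial cells. Astrocyte Hapln1, at 5.44 to 8.67 CPM, overlapped the 0 to 8.52 CPM of microglia and the 0 to 49.5 CPM of endothelial cells. Hapln4 was at 4.90 to 13.7 CPM in astrocytes, 2.53 to 16.5 CPM in precursors and 5.35 to 20.7 CPM in oligodendrocytes, overlapping the 0 to 19.7 CPM of microglia. It did not pass the threshold between these glial classes. Without vGluT2-Cre replicate 1 it was lower in astrocytes than in oligodendrocytes (-0.61, adjusted p = 0.00885 by edgeR).

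**Figure D3:**
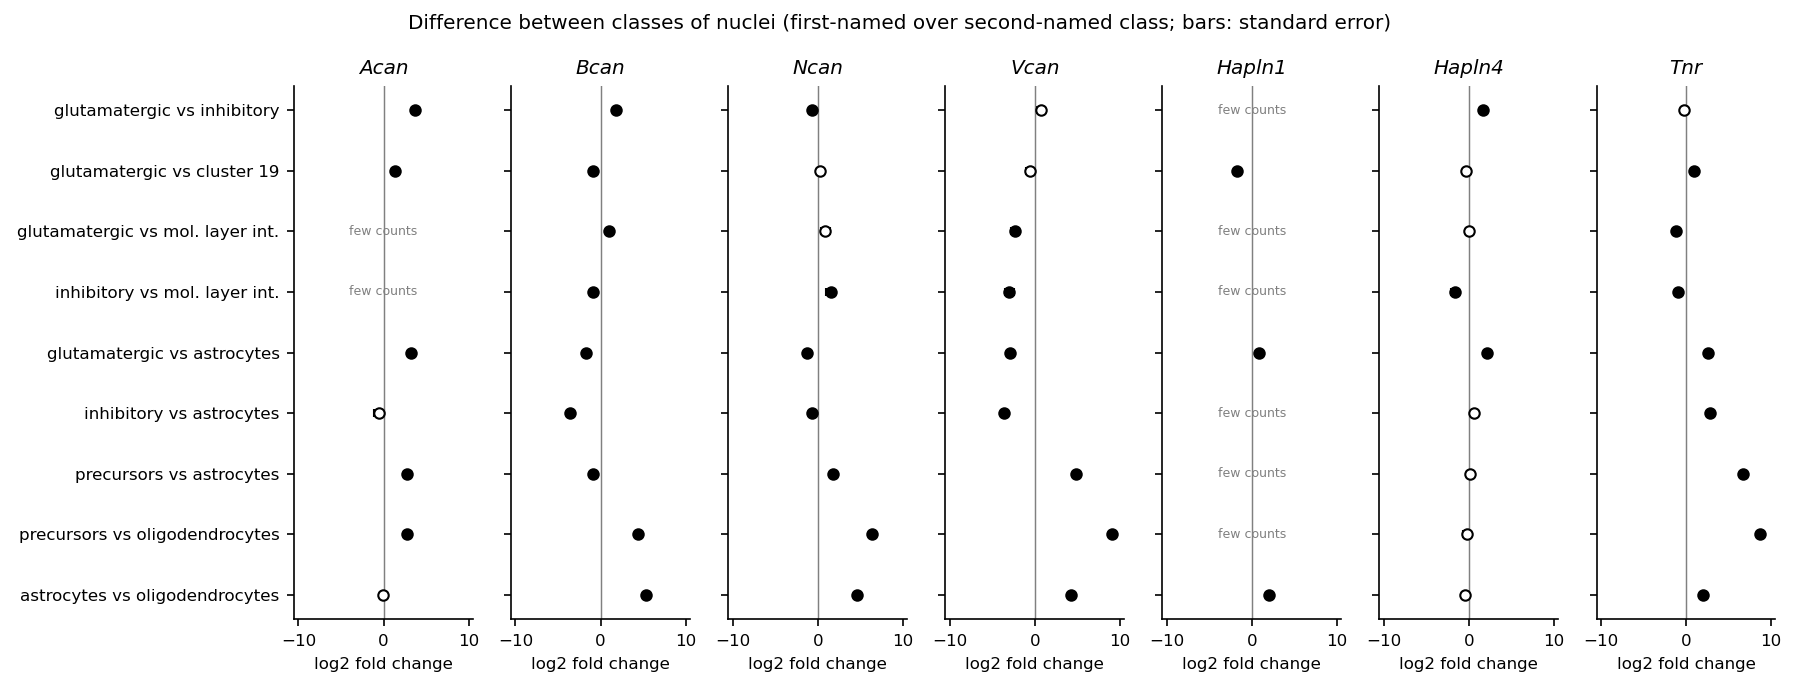
Log2 fold change of each net gene between pairs of classes, first-named over second-named class, with its standard error (often smaller than the point); filled points passed adjusted p under 0.05. Vcan and Tnr reach 9.02 and 8.74 between precursors and oligodendrocytes, and Hapln4 did not pass the threshold between the glial classes. The words "few counts" mark pairs where a class held at most 3 counts.

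Astrocytes were not uniform in net transcripts. In 6 sub-clusters, Vcan stood at 221, 272, 279 and 216 CPM in sub-cluster 4, led by Gm36287, Pdzrn3 and Efemp1, and at 404, 253, 290 and 192 CPM in sub-cluster 5, led by Mybpc1 and Nell2, against 69.6 to 106 CPM in sub-cluster 2, led by Gfap, and 42.9 to 48.6 CPM in sub-cluster 0, led by Gria1 and Itih3. Sub-cluster 3, led by Igfbp2 and Etv5, had 32.1 to 47.0 CPM. In every library the 2 highest were sub-clusters 4 and 5, and neither overlapped the other 4 (adjusted p of the test across sub-clusters = 9.7e-50). The sub-clusters, here and among neurons below, were set from the same counts, so p-values across them are too small. Ncan ran partly the other way, at 29.4, 8.14, 28.4 and 14.5 CPM in sub-cluster 4, against 49.9, 54.8, 63.9 and 53.3 CPM in sub-cluster 3 (adjusted p across sub-clusters = 2e-10). Sub-cluster 5 had 43.4 CPM of Ncan with the 4 libraries pooled, on 14.5 counts, and 0 to 72.3 CPM in single libraries. Its pooled Tnr was 73.5 CPM, against 81.4 CPM in sub-cluster 3. Sub-cluster 4 was also low for Tnr, at 25.7 to 41.0 CPM, against 56.2 to 97.6 CPM in sub-cluster 3 (adjusted p = 1.89e-17), while Bcan stood between 741 and 999 CPM in the sub-clusters with the 4 libraries pooled, and between 593 and 1167 CPM in single libraries (adjusted p = 8.1e-10). Of 5 members tested, 4 were called, against 35.8% of all genes, and Hapln4 was not (adjusted p = 0.28). Acan and Hapln1 had too few counts for that test. With no filter on low counts, a setting chosen after seeing the data, Hapln1 also differed (adjusted p = 0.00034), where 24.8% of all genes did: it stood at 6.18 to 12.7 CPM in sub-cluster 3 and rested on 2.01 counts in all of sub-cluster 4. Sub-cluster 1, with 73 nuclei, was led by the neuronal genes Syt1 and Rbfox1.

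**Figure D4:**
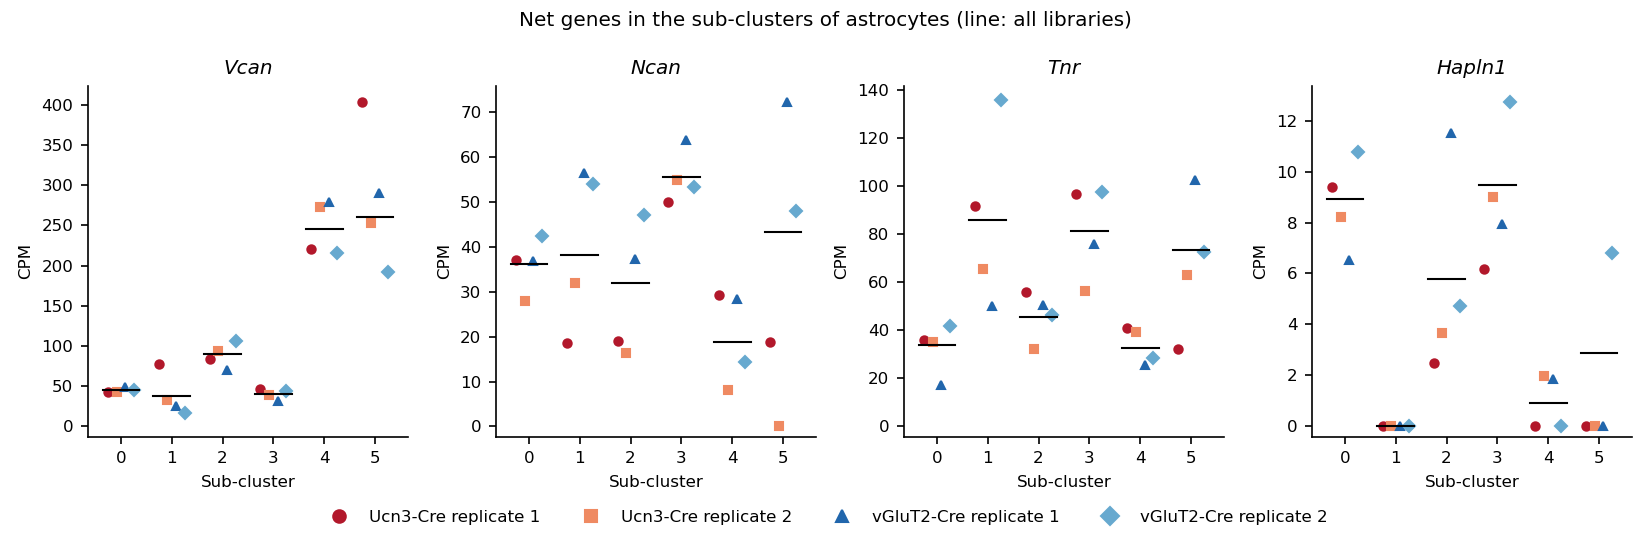
Level (CPM) of 4 net genes in the 6 sub-clusters of astrocytes, with 1 point per library and a line for all libraries together. For Vcan, sub-clusters 4 and 5 lie between 192 and 404 CPM and the other 4 at or below 106 CPM.

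Aggrecan is the lectican by which nets are usually recognised. Acan stood at 17.9, 25.7, 16.0 and 26.8 CPM in glutamatergic neurons, against 2.30, 1.13, 1.44 and 1.90 CPM in inhibitory neurons, with no overlap and a log2 fold change of 3.72 ± 0.43 (adjusted p = 1.14e-08). The depositors' own vglut2 nuclei stood at 17.7, 28.0, 17.4 and 28.7 CPM. They come from the same 4 libraries and share nuclei with the glutamatergic class, so the likeness is no independent support. Molecular layer interneurons had no Acan count in any library, and against a floor of 3 counts over that class the glutamatergic level was at least 4.52-fold higher. An Acan count was present in 10.9 to 31.9% of glutamatergic nuclei, at median depths of 6651 to 15405 counts, against at most 1.24% of microglia. Thinned to 1000 counts, the glutamatergic share was 0.99 to 2.21%, near the level of a single count. Astrocytes, at 1.38 to 3.22 CPM, were within the 0 to 6.35 CPM of microglia, and the glutamatergic class was higher than they were (3.22 ± 0.28, adjusted p = 3.29e-12). Oligodendrocyte precursors, at 12.3 to 21.9 CPM, overlapped the glutamatergic level, and that pair was not tested.

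Hapln1 and Hapln4 stabilise lecticans on hyaluronan, and Hapln4 is the brain link protein known to pair with brevican in the cerebellar nuclei of mice. Hapln4 stood at 27.5, 35.6, 51.3 and 46.6 CPM in glutamatergic neurons, against 10.9, 23.3, 9.88 and 14.4 CPM in inhibitory neurons (log2 fold change 1.62 ± 0.28, adjusted p = 2.06e-05). The inhibitory level overlapped the 0 to 19.7 CPM of microglia and lay within the 9.84 to 37.5 CPM of endothelial cells. The endothelial range also overlapped the glutamatergic level. Hapln1 stood at 10.4, 11.5, 13.1 and 18.3 CPM in glutamatergic neurons, against 1.95 counts in all in inhibitory neurons, from 1 library. That pooled ratio was 25.7, with an exact counting interval of 6.67 to 209 at 95% that covers counting error only. Molecular layer interneurons had no Hapln1 count, and the glutamatergic level was at least 2.85-fold above their floor. Their Hapln4 level, 75.7, 47.6, 29.8 and 63.2 CPM, overlapped that of glutamatergic neurons (0.04 ± 0.37, adjusted p = 0.96).

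Bcan and Tnr were abundant in neurons as well. Bcan stood at 298, 282, 346 and 302 CPM in glutamatergic neurons, against 89.5, 92.7, 95.8 and 86.5 CPM in inhibitory neurons (1.82 ± 0.12, adjusted p = 4.9e-15) and 75.1, 148, 224 and 245 CPM in molecular layer interneurons (0.92 ± 0.17, adjusted p = 3.3e-05). Ncan was slightly lower in glutamatergic neurons, at 24.1, 16.1, 20.3 and 14.2 CPM, than in inhibitory neurons, at 24.3, 27.4, 25.6 and 38.2 CPM (-0.61 ± 0.23, adjusted p = 0.0385), a difference with adjusted p = 0.1 without Ucn3-Cre replicate 2, 0.437 without vGluT2-Cre replicate 2 and 0.0631 by DESeq2. Tnr stood at 349, 325, 370 and 331 CPM in glutamatergic neurons, against 473, 375, 436 and 417 CPM in inhibitory neurons. It was lower in 4 of 4 libraries, with no overlap, but did not pass the threshold (-0.24 ± 0.14, adjusted p = 0.21). In an edgeR fit on glutamatergic and inhibitory neurons alone it did (-0.25, adjusted p = 0.00902). Molecular layer interneurons had 948, 588, 1144 and 985 CPM of Tnr, and glutamatergic neurons were lower than these (-1.19 ± 0.15, adjusted p = 1.01e-07). In all, 5 of 7 members were called between glutamatergic and inhibitory neurons, against 30.7% of all genes, and 5 of 7 between glutamatergic neurons and molecular layer interneurons, against 25.7%. In a fit on glutamatergic neurons and molecular layer interneurons alone, 3 were called.

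Inhibitory neurons were lower than molecular layer interneurons for Bcan (-0.89 ± 0.20, adjusted p = 0.00083), Vcan (-2.99 ± 0.53), Hapln4 (-1.58 ± 0.46) and Tnr (-0.95 ± 0.16) and higher for Ncan (1.52 ± 0.52, adjusted p = 0.032), making 5 of 7 against 20.1% of all genes. Ncan in molecular layer interneurons rested on 6.65 counts, all from vGluT2-Cre libraries, and 3 members were called without Ucn3-Cre replicate 1 or without vGluT2-Cre replicate 2. Ncan had adjusted p = 0.0859, 0.222 and 0.109 without Ucn3-Cre replicate 1, Ucn3-Cre replicate 2 and vGluT2-Cre replicate 2. Hapln4 had adjusted p = 0.0535 without Ucn3-Cre replicate 1 and 0.0856 without vGluT2-Cre replicate 2, and Bcan 0.0598 without vGluT2-Cre replicate 1. Against astrocytes, glutamatergic neurons differed for 7 of 7 members, where 69.5% of all genes did: higher for Acan, Hapln1 (0.86 ± 0.27), Hapln4 (2.18 ± 0.23) and Tnr (2.58 ± 0.15), and lower for Bcan (-1.72 ± 0.09), Ncan (-1.22 ± 0.18) and Vcan (-2.87 ± 0.23). Hapln1 lost that call without vGluT2-Cre replicate 2 (adjusted p = 0.0556). Inhibitory neurons differed from astrocytes for 5 of 7, where 62.3% of all genes did, with Tnr higher (2.82 ± 0.15) and Bcan (-3.54 ± 0.11), Ncan (-0.61 ± 0.18) and Vcan (-3.58 ± 0.30) lower. The fifth, Hapln1, had a pooled ratio of 0.0742 in inhibitory neurons over astrocytes, with an exact counting interval of 0.00913 to 0.283. Without vGluT2-Cre replicate 1, 3 members were called in that comparison.

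Vcan in glutamatergic and inhibitory neurons came from few nuclei. It stood between 5.08 and 21.5 CPM in glutamatergic neurons, against 36.2, 4.08, 5.59 and 2.05 CPM in inhibitory neurons (0.71 ± 0.46, adjusted p = 0.27), and the groups overlapped. In Ucn3-Cre replicate 1 a single inhibitory nucleus held 63.2% of the Vcan counts, and in vGluT2-Cre replicate 2 a single glutamatergic nucleus held 79.1%. Without Ucn3-Cre replicate 1 the log2 fold change was 1.72 (adjusted p = 0.00997), and without vGluT2-Cre replicate 1 it was -0.13 (adjusted p = 0.9). Molecular layer interneurons stood higher, at 60.1, 68.7, 101 and 28.2 CPM, from 2 of 35, 10 of 85, 18 of 92 and 4 of 32 nuclei with a count. No library of glutamatergic neurons reached those levels, and the log2 fold change of glutamatergic neurons over molecular layer interneurons was -2.28 ± 0.46 (adjusted p = 0.00018). Of 8 precursor markers, 5 to 8 had counts in glutamatergic neurons, summing to 1308 to 1617 CPM, and 6 to 8 in inhibitory neurons, summing to 1156 to 1341 CPM, against 11908 to 12745 CPM in the precursors. In molecular layer interneurons 4 to 7 had counts, summing to 256 to 540 CPM. Pdgfra was at 0 in the glutamatergic nuclei of 3 libraries. With the libraries pooled it stood at 0.226 CPM in glutamatergic neurons, 3.04 CPM in inhibitory neurons and 3.87 CPM in molecular layer interneurons, against 1740.5 CPM in precursors. Other markers on the list therefore carried most of the neuronal sums. The part of precursor RNA in the neuronal Vcan was not tested.

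The comparison with inhibitory neurons turned on cluster 19. These nuclei carried inhibitory markers, among them Slc6a5 and Pax2, which were almost absent from the inhibitory class. Their net transcripts were also unlike those of the inhibitory class: Hapln1 stood at 50.5, 37.3, 44.2 and 52.3 CPM, Hapln4 at 50.2, 64.8, 57.5 and 51.3 CPM, and Bcan at 473, 505, 688 and 645 CPM. In cluster 19 over inhibitory neurons, the log2 fold change was 2.65 ± 0.12 for Bcan (adjusted p = 4.5e-21), 1.96 ± 0.31 for Hapln4 (adjusted p = 1.8e-06) and 2.33 ± 0.60 for Acan (adjusted p = 0.0025), and the pooled Hapln1 ratio was 85.6, with an exact counting interval of 22.4 to 693. Ncan (-0.88 ± 0.29) and Tnr (-1.17 ± 0.18) were lower, so 6 of 7 members were called, against 28.3% of all genes. Acan lost the call without Ucn3-Cre replicate 2 (adjusted p = 0.115) and Ncan without vGluT2-Cre replicate 2 (adjusted p = 0.275). Set against cluster 19, glutamatergic neurons were higher for Acan (1.36 ± 0.34, adjusted p = 0.0019) and Tnr (0.91 ± 0.17) and lower for Bcan (-0.85 ± 0.10) and Hapln1 (-1.69 ± 0.25, adjusted p = 1.1e-06), which is 4 of 7 members, against 25.1% of all genes. When cluster 19 was counted with the inhibitory neurons, 1 of the 7 members, Acan, was called between glutamatergic and inhibitory neurons, and Hapln1 turned to -0.41 (adjusted p = 0.22). Both fits with cluster 19 were chosen after seeing the data.

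Among glutamatergic neurons, net transcripts varied between 10 sub-clusters. Acan stood at 43.0, 46.9, 30.4 and 30.4 CPM in sub-cluster 1, led by Crhr1, Pdgfc and Maf, and at 46.4, 52.9, 36.4 and 38.8 CPM in sub-cluster 6, whose leading genes included the oligodendrocyte genes St18 and Mbp. No Acan count was found in sub-cluster 7, led by Kynu and Igf1, or in sub-cluster 8, led by Pax2 and Gad2, in any library. Those sub-clusters had 300143 and 386174 counts in all. Sub-cluster 8 went against its class name, with Slc17a6 at 15.9 CPM and Gad2 at 421 CPM. So in part did sub-cluster 3, with 39 nuclei, led by Zfhx3 and Zfhx4, where Slc17a6 stood at 87.3 CPM and Gad2 at 161 CPM. Without sub-clusters 3, 6 and 8, a setting chosen after seeing the data, 5 of 7 members were called between glutamatergic and inhibitory neurons, Acan among them. Sub-clusters 2, led by Prox1, and 4, led by Lmx1a, held 1.97 and 1.91 Acan counts in all. Hapln1 stood at 34.8, 13.2, 20.5 and 25.7 CPM in sub-cluster 1 and between 0 and 21.6 CPM in sub-cluster 6, and had no count in sub-cluster 7.

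Sub-cluster 7 was also the lowest for Tnr, at 97.0, 179, 118 and 116 CPM, against 466, 420, 574 and 380 CPM in sub-cluster 1 (adjusted p across sub-clusters = 4.1e-08). With all libraries together, Bcan was highest in sub-cluster 0, led by Sox6 and Col12a1, at 330, 410, 490 and 378 CPM in single libraries. That range overlapped other sub-clusters, among them sub-cluster 1 at 299 to 466 CPM and sub-cluster 6 at 255 to 453 CPM. Bcan was lowest over all libraries together in sub-cluster 8, between 64.0 and 201 CPM (adjusted p across sub-clusters = 2.67e-07 by edgeR). Bcan and Tnr, the 2 members with enough counts for this test, were both called, against 30.0% of all genes. With no filter on low counts, chosen after seeing the data, Acan (adjusted p = 4.4e-09) and Vcan (adjusted p = 7.5e-14) were called too, and Hapln1 was not (adjusted p = 0.054), in a test where 14.8% of all genes were called. Acan was called without sub-clusters 6 and 8 as well (adjusted p = 6.18e-05). Without sub-clusters 3, 6 and 8 it was called too (adjusted p = 2.18e-05), Hapln1 gained the call (adjusted p = 0.0359) and Vcan lost it (adjusted p = 0.0722). Of 77.0 Vcan counts in the class, 38.3 lay in sub-cluster 8, where Vcan stood at 134, 0, 157 and 0 CPM. Inhibitory neurons fell into 7 sub-clusters, of which 6 had enough nuclei for the test. Neither Bcan (adjusted p = 0.74) nor Tnr (adjusted p = 0.86) passed the threshold across those 6, by edgeR's quasi-likelihood test, where 12.7% of all genes were called, and neither member had an unadjusted p under 0.05.

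**Figure D5:**
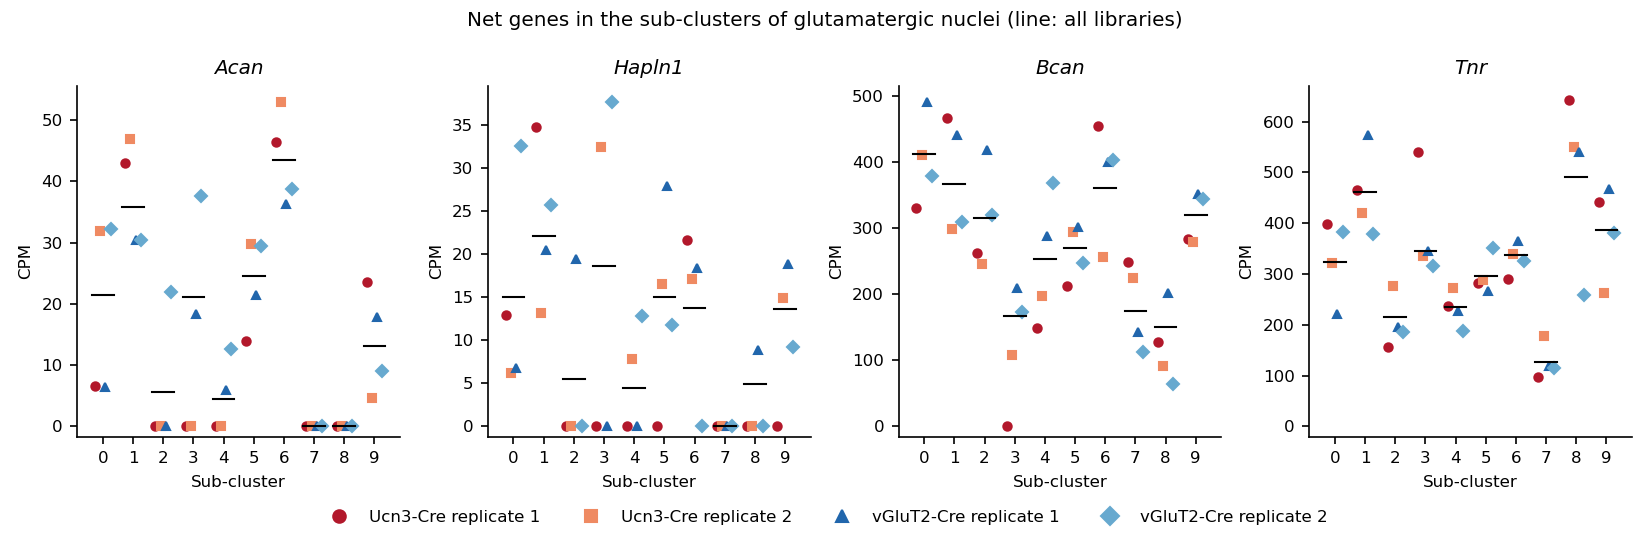
Level (CPM) of 4 net genes in the 10 sub-clusters of glutamatergic neurons, with 1 point per library and a line for all libraries together. Acan is at 30.4 CPM or more in every library in sub-clusters 1 and 6 and at 0 in sub-clusters 7 and 8.

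Single glutamatergic nuclei held several members at once. Of those with an Acan count, 90.9, 100, 100 and 93.3% also had a Bcan count, against 75.2 to 87.2% of all glutamatergic nuclei, and 27.3, 56.7, 63.6 and 66.7% had a Hapln4 count, against 20.8 to 46.8%. Depth was not matched between these sets of nuclei, so the shares are a description. Nuclei with no member counted made up 2.13 to 5.94% of the class.

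No member was called between the lines or between the sexes in any class. Ucn3-Cre against vGluT2-Cre libraries called 0 members in each of 6 classes by edgeR's quasi-likelihood test, and female against male libraries likewise. Over all genes, the line test called 0% in glutamatergic neurons, 0% in inhibitory neurons, 0.0272% in molecular layer interneurons, 0% in astrocytes, 0.0491% in oligodendrocyte precursors and 0% in oligodendrocytes. The sex test called 0.00901, 0.0499, 0.109, 0.00835, 0.111 and 0% in the same order of classes. Between 213 and 360 genes a class had an unadjusted p under 0.05 for line and between 104 and 343 for sex, and DESeq2 called 0 to 194 genes for line and 3 to 148 for sex. DESeq2 called 0 members too. The smallest member p for line was that of Bcan in molecular layer interneurons, at 75.1 and 148 CPM in Ucn3-Cre libraries and 224 and 245 CPM in vGluT2-Cre libraries (-0.86 ± 0.35, adjusted p = 0.768 by edgeR). The next was that of Hapln4 in glutamatergic neurons, at 27.5 and 35.6 CPM in Ucn3-Cre libraries and 51.3 and 46.6 CPM in vGluT2-Cre libraries (-0.56 ± 0.22, adjusted p = 1.00 by edgeR). For sex it was that of Tnr in astrocytes, at 62.4 and 62.6 CPM in female libraries and 44.1 and 48.1 CPM in male libraries (0.51 ± 0.11, adjusted p = 1.00 by edgeR). In none of these 3 did the groups overlap, and none passed the threshold. With 2 libraries a group, the standard errors of the members' line differences ran from 0.12 to 0.99 on the log2 scale.

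Genes that build, trim and anchor the net were looked at as lists. Of 14 chondroitin sulphate synthesis and sulphation genes tested, 11 were higher and 0 lower in oligodendrocyte precursors than in oligodendrocytes, where 51.7% of all genes were called, with a median log2 fold change of 1.39 against -0.06 over all genes. Chst11, a chondroitin 4-O-sulphotransferase, stood at 1007 ± 134 CPM in precursors and 1.65 ± 1.52 CPM in oligodendrocytes (SD, n = 4 libraries; 8.91 ± 0.17), and Xylt1, which starts the chain on the core protein, at 3586 ± 222 CPM in precursors and 25.4 ± 2.52 CPM in oligodendrocytes (7.01 ± 0.11). Against astrocytes, precursors were higher for 9 and lower for 2 of the 14 (median 1.16 against -0.03), where 45.6% of all genes were called, led by Chst3, a 6-O-sulphotransferase (5.60 ± 0.20). Csgalnact1, which commits the chain to chondroitin, stood at 9.71 ± 5.21 CPM in glutamatergic neurons and 648 ± 33.9 CPM in astrocytes (-6.05 ± 0.16). Between glutamatergic and inhibitory neurons, 2 were higher and 4 lower (median 0.03 against 0.00), where 30.7% of all genes were called, with Chsy3, a chondroitin synthase, higher (1.26 ± 0.14) and Csgalnact1 lower (-2.31 ± 0.25).

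Has2, a hyaluronan synthase, stood at 37.3 ± 5.62 CPM in oligodendrocyte precursors, against 0.24 ± 0.31 CPM in astrocytes (6.66 ± 0.51) and 0.31 ± 0.39 CPM in oligodendrocytes (6.37 ± 0.44), and at no more than 1.20 CPM on average in any neuron class. Among 7 tested tenascins and other matrix proteoglycans, 5 were higher and 0 lower in precursors than in astrocytes (median 0.92 against -0.03 over all genes, of which 45.6% were called), with Cspg5, or neuroglycan C, at 1124 ± 239 CPM in precursors and 65.7 ± 7.80 CPM in astrocytes (4.01 ± 0.10). Ptprz1, whose secreted form is phosphacan and which binds tenascin-R, stood at 2841 ± 368 CPM in precursors, against 16.3 ± 2.41 CPM in oligodendrocytes (7.31 ± 0.14). It was also high in cluster 19, at 744 ± 101 CPM, against 20.6 ± 22.2 CPM in inhibitory neurons (5.61 ± 0.19). Of 10 tested proteases, hyaluronidases and inhibitors, 2 were higher and 6 lower in precursors than in astrocytes (median -0.59 against -0.03 over all genes, of which 45.6% were called): Adamts9, a versican-cleaving protease, stood at 32.2 ± 5.9 CPM in precursors and 384 ± 51.6 CPM in astrocytes (-3.73 ± 0.17). Adamts4, which cleaves brevican and aggrecan, stood at 6.99 ± 1.97 CPM in precursors and 126 ± 17.3 CPM in oligodendrocytes (-4.35 ± 0.30). Of 10 tested receptors and partners, 5 were higher and 2 lower in glutamatergic neurons than in astrocytes (median 0.67 against -0.01 over all genes), a share close to the 69.5% of all genes called: Sema3a, a guidance factor held in nets, stood at 66.5 ± 17.9 CPM in glutamatergic neurons and 4.61 ± 2.51 CPM in astrocytes (3.67 ± 0.23).

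In the genome each lectican gene lies beside a link protein gene (GENCODE vM21, GRCm38), and the neighbours were not alike in their classes. Vcan, at chr13:89655312-89742509 on the minus strand, and Hapln1, at chr13:89539796-89611652 on the plus strand, lie 43.7 kb apart. Vcan averaged 2613 ± 309 CPM in oligodendrocyte precursors, where Hapln1 had 2.15 counts in all 4 libraries. Bcan, at chr3:87987531-88000230, and Hapln2, the link protein of nodes of Ranvier, at chr3:88021750-88027583, share the minus strand and lie 21.5 kb apart. Hapln2 averaged 940 ± 107 CPM in oligodendrocytes, which held 97.2 to 98.6% of its counts, where Bcan averaged 21.9 ± 4.36 CPM. Ncan, at chr8:70093085-70120873 on the minus strand, and Hapln4, at chr8:70083457-70090862 on the plus strand, lie 2.22 kb apart. Ncan was highest in oligodendrocyte precursors and Hapln4 in cluster 19 and molecular layer interneurons. Acan, at chr7:79053483-79115099 on the plus strand, ends 2 bases from Hapln3 on the minus strand, and Hapln3 was not analysed here. Tnr, at chr1:159523769-159931729 on the plus strand, spans 408 kb. Whether reads were counted by strand is not given in the sources used here, so reads past the end of Acan cannot be assigned to either gene of that pair.

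Across the 24 sums of 6 classes and 4 libraries, the genes most like each member by Pearson's r of log2 CPM, out of 12158, were Igsf21, Nlgn2 and Myt1 for Tnr (r = 0.97 each), Thrb, Ctnnd2 and Mpp6 for Bcan (r = 0.96 each) and Rgcc, Afap1l2 and Lrrc4c for Vcan (r = 0.94, 0.94 and 0.93). For Ncan they were Rasa2, Arhgef40 and Dmd (r = 0.92, 0.90 and 0.89), for Acan Gpr149, Vwc2 and Lmo3 (r = 0.91, 0.90 and 0.88), for Hapln4 Neu1, Coro6 and Pax2 (r = 0.89, 0.88 and 0.87), and for Hapln1 Fstl1, Meis2 and Cabin1 (r = 0.87, 0.84 and 0.82). The sums share libraries, and their spread is mostly that between the 6 classes, so these values describe likeness only.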

How the data were processed

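Single nuclei of 4 libraries were sequenced on the 10x platform. The authors deposited 1 table per library and a vglut2 table of 480 nuclei with identical values. Per the submitters' processing notes, Cell Ranger 3.1.0, Seurat 3.2 and mm10 were used. The deposited values were treated as estimated counts per gene and nucleus, since they lie just under whole numbers. The step that made them so is not given in the sources used here. Sums per class were rounded to whole numbers before testing.

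All 21494 nuclei passed minimums of 200 genes and a maximum of 5% mitochondrial counts. Scrublet marked 37 nuclei (0.172%) and had thus not worked, so the 947 nuclei of highest score were removed. The other 20547 nuclei were clustered in scanpy 1.11.5 on 2000 variable genes without the members and listed genes (30 components, 15 neighbours, Leiden resolution 1), giving 20 clusters named from marker lists. Sub-clusters used 1000 genes, 15 components and resolution 0.5.

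Counts were summed per library and class (at least 20 nuclei, or 5 for sub-clusters) and tested in edgeR 4.0.16 (R 4.3.3) by the quasi-likelihood test, with filterByExpr, TMM scaling, the library as a block for classes and Benjamini-Hochberg adjustment over all genes at 0.05. The joint fit held 12158 genes, and that with cluster 19 held 11877. DESeq2 1.42.0, other scalings, filters, clusterings and each library left out were alternatives. CPM are counts per 1000000 of a sum, and likeness used a prior count of 2. The floor is 3 counts, and intervals and floors cover counting error only. In the partner lists, up to 4 genes per list and comparison could be named, those past the threshold with the largest change and the same direction in every library. The 3 genes most like each member and the neighbouring link protein genes were named as well. The members and lists were chosen with earlier results of these data known. The steps were tested on simulated data.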

Additional observations from a re-analysis of the deposited data

Results flagged for a closer look

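Of 44 groups of 4 libraries, 3 held a library standing apart from the other 3, each time Ucn3-Cre replicate 1, where chance gives about 1 in 20. Tnr in cluster 19 stood at 367.3 CPM there, against 143 to 170 CPM in the other libraries, and 1 of 64 nuclei held 37.7% of those counts. Vcan in cluster 19 stood at 62.21 CPM, against 8.51 to 15.5 CPM, with 41.5% of the counts in 1 nucleus. Vcan in inhibitory neurons stood at 36.16 CPM, against 2.05 to 5.59 CPM, with 63.2% in 1 nucleus. In cluster 19 of that library, 7 of 8 precursor markers had counts, summing to 632 CPM, against 544 to 578 CPM in the other 3, and 9 of 9 oligodendrocyte markers summed to 1167 CPM, against 315 to 488 CPM. The part of these markers in the Tnr and Vcan values was not tested.

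The difference in Hapln4 between oligodendrocyte precursors and oligodendrocytes was -4.307 CPM in Ucn3-Cre libraries and 0.5161 CPM in vGluT2-Cre libraries, each line's 2 libraries moving the same way in CPM. On TMM-scaled log2 CPM with a prior count of 2, precursors were lower in 4 of 4 libraries. That in Acan between astrocytes and oligodendrocytes was -1.163 CPM in Ucn3-Cre libraries and 0.9635 CPM in vGluT2-Cre libraries. Neither difference between the lines was tested.

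Members also had counts in classes outside the comparisons. Bcan averaged 57.38 CPM in endothelial cells and 38.02 CPM in microglia, Hapln4 20.39 CPM in endothelial cells and Tnr 46.78 CPM in endothelial cells.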

How the results depend on the processing

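Of 1011 member log2 fold changes under an alternative, 970 kept their direction and side of the threshold, 25 lost the call, 6 gained it and 10 turned round, and the cause was not tested. The settings on cluster 19, on left-out sub-clusters, on unfiltered sub-clusters and on crossed numbers were chosen after seeing the data. With cluster 19 counted as inhibitory, 1 member was called between glutamatergic and inhibitory neurons, where Hapln1 was -0.41 and Tnr 0.14. Under that setting Bcan was 0.78 between inhibitory neurons and molecular layer interneurons, and Acan 0.91 and Hapln1 1.27 between inhibitory neurons and astrocytes. Vcan between glutamatergic and inhibitory neurons was -0.20 without glutamatergic sub-clusters 6 and 8, -0.33 without 3, 6 and 8, and -0.13 to 1.72 with a library left out. Hapln1 between inhibitory neurons and molecular layer interneurons was -1.09 by DESeq2 and -0.057 to 3.55 with a library left out. With only the 2 classes in the fit, 3 members were called between glutamatergic neurons and molecular layer interneurons. With a library left out, 3 to 4 were called between inhibitory neurons and molecular layer interneurons and 3 to 5 between inhibitory neurons and astrocytes. With no filter on low counts, 2218 genes and 4 members were called across glutamatergic sub-clusters, and 4 members also without sub-clusters 6 and 8 and without 3, 6 and 8. Leaving out a library gave 917 to 1369 genes across them with the filter. With no library block, 2253 genes were called between glutamatergic and inhibitory neurons, 393 across inhibitory sub-clusters and 2111 across astrocyte sub-clusters. Thinning each nucleus to 1000 counts moved 37 of 42 shares of nuclei, so these shares depend on depth.

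For line, genes called by DESeq2 numbered 4 in glutamatergic neurons, 5 in inhibitory neurons, 0 in molecular layer interneurons, 78 in astrocytes and 194 in oligodendrocytes. For sex they were 10, 9, 57 and 148 in glutamatergic neurons, inhibitory neurons, astrocytes and oligodendrocytes. With no filter, line gave 4, 5 and 26 in inhibitory neurons, molecular layer interneurons and precursors, and sex gave 5, 16, 7 and 31 in glutamatergic neurons, inhibitory neurons, molecular layer interneurons and precursors. With a library left out, line gave 0 to 44 in glutamatergic neurons, 0 to 44 in inhibitory neurons, 0 to 19 in molecular layer interneurons and 27 to 50 in precursors, and sex gave 0 to 4, 4 to 45, 1 to 13, 0 to 1 and 21 to 78 in glutamatergic neurons, inhibitory neurons, molecular layer interneurons, astrocytes and precursors. A lone library was then assumed to vary like the other group.

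Within each line, the log2 CPM of replicate 2 was taken from that of replicate 1 for each gene. Across genes, these differences correlated between the lines at 0.010 to 0.135, depending on the class. Libraries of the same replicate number make 2 pairs. The labels give these pairs only a number, but the column names of both replicate 2 libraries carry the same tag and those of the replicate 1 libraries do not. What the tag marks is not given in the sources used here. With the replicate number as a block, 0 members were called for line in every class, and genes called in precursors numbered 14, or 13 with the numbers crossed.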
